A study of Oryza sativa with 36 samples.

Results

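The difference between a pair of rice genotypes in their response to 8 h of chilling was examined on 12 of the 36 arrays of the study, those whose titles give 8 h of chilling or the control of either genotype. These arrays form 4 groups of 3 biological replicates, namely LTH after 8 h at 4 °C, the LTH control at 29 °C, IR29 after 8 h at 4 °C and the IR29 control at 29 °C. LTH (Li-Jiang-Xin-Tuan-Hei-Gu) is a chilling-tolerant japonica genotype, and IR29 is a chilling-sensitive indica cultivar. Seedlings of both shared soil plates, were raised at 29 °C for 8 to 10 days and were then chilled in a cycle of 12 h light and 12 h dark, and RNA of the leaves was hybridized to the Affymetrix rice genome array. The other 24 arrays hold the same genotypes after 2, 24 and 48 h at 4 °C and after recovery. Since the labels give each genotype 1 control group with no time, chilling and time of day cannot be told apart within a genotype. A response is the log2 level at 8 h minus the log2 level in the control, and the interaction is the LTH response minus the IR29 response, so that a positive value stands for a higher response in LTH. A probe set is the unit of the array designed to measure a transcript, and 95 probe sets were annotated to several genes. A probe set was called at an adjusted p below 0.05 and a difference of at least 2-fold.

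Chilling slows photosynthesis and membrane transport in rice leaves, and a japonica leaf usually withstands it longer than an indica leaf. The cold signal is carried by calcium, whose sensor proteins bind kinases, and by the DREB1/CBF transcription factors, which switch on protective genes. Chloroplasts are an early site of injury because absorbed light can no longer be used, so pigment, redox and repair proteins of this organelle are of particular interest in a tolerant genotype.

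Arrays of the same group resembled each other closely, with Pearson correlations of 0.949 to 0.977 across probe sets, and the medians of the 12 arrays lay between 10.21 and 11.16 intensity units. The 6 mature mesophyll markers, which define the green leaf, summed to 16520 to 18520 units in LTH at 8 h, 22360 to 23120 in LTH controls, 20380 to 21080 in IR29 at 8 h and 22400 to 24770 in IR29 controls. Markers of other tissues differed more between arrays. The 12 genes of dividing cells summed to 580, 427 and 2156 units in LTH at 8 h and 1427, 1342 and 1186 in LTH controls, against 1401, 691 and 1216 in IR29 at 8 h and 398, 838 and 232 in IR29 controls. The 3 phloem genes reached 1130, 1020 and 4397 units in LTH at 8 h, so replicate 3 of this group stood apart from the other two in both lists. The 4 root markers stood at 36.9, 556 and 136 units in IR29 at 8 h, and none of the marker genes of any list was called in the interaction. In such leaf samples fewer cells of a type and less RNA per cell cannot be told apart, and the part of these markers in the results below was not tested. With LTH 8 h replicate 3 left out, 1189 of the 1295 higher and 254 of the 337 lower calls given next were made again.

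**Figure D1:**
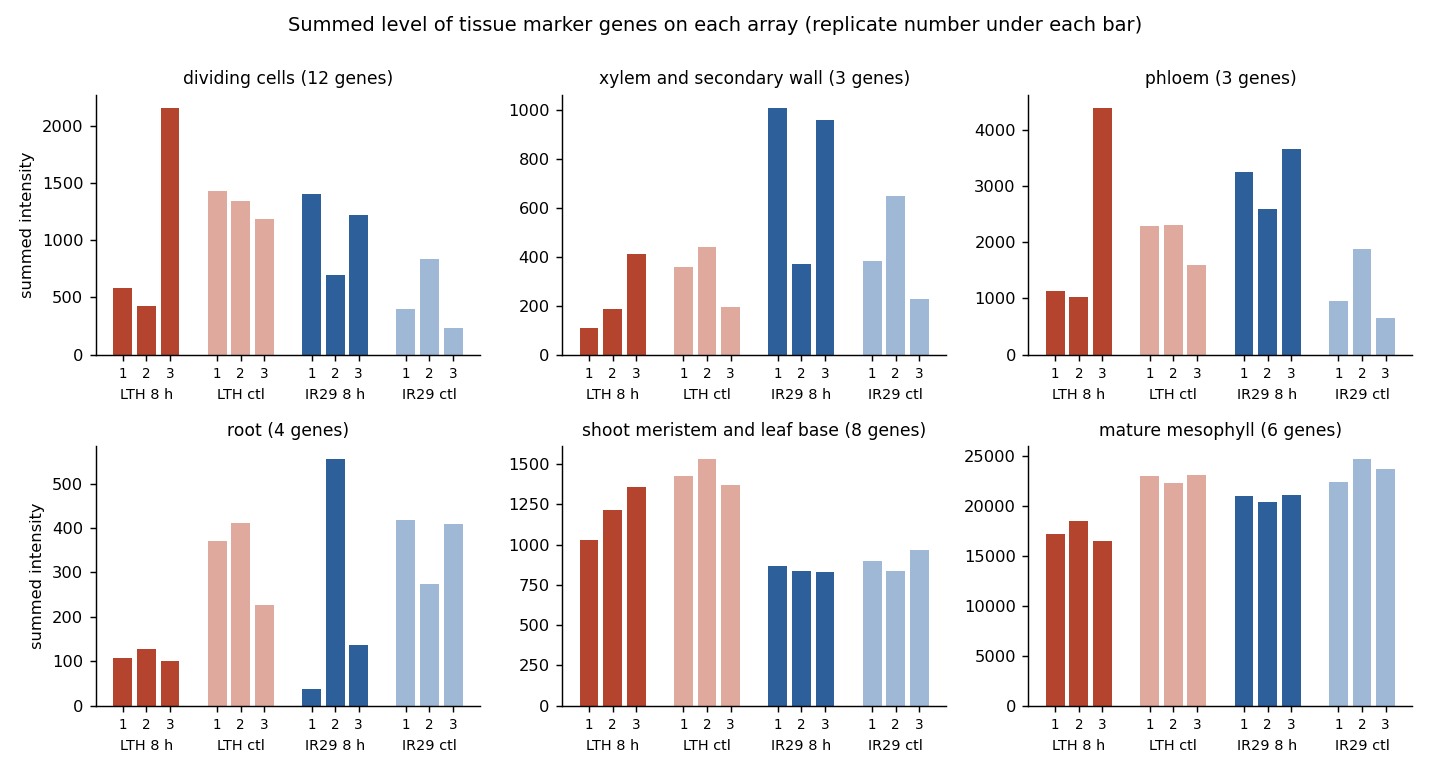
Summed intensity of 6 lists of tissue marker genes on each of the 12 arrays, with 1 bar per array and the replicate number under it. Replicate 3 of LTH at 8 h carries the highest sums for dividing cells (2156) and phloem (4397), and the mesophyll sums lie between 16520 and 24770 on all arrays.

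At 8 h the response of 1295 probe sets was higher in LTH (2.26% of the 57258 tested) and that of 337 was lower in LTH (0.589%), so calls with a higher response in LTH were the more frequent. The median interaction over all probe sets was 0.02. Within the genotypes, 4157 probe sets rose (7.26%) and 3724 fell (6.50%) in LTH, and 4146 rose (7.24%) and 4567 fell (7.98%) in IR29. Of the 1295 probe sets, 501 (38.7%) rose in LTH with no call in IR29, and 489 (37.8%) fell in IR29 with no call in LTH. Another 66 rose in both genotypes, 29 fell in both, 69 rose in LTH and fell in IR29, and 141 were called in neither genotype. Among the 337, 161 (47.8%) rose in IR29 with no call in LTH, and 109 (32.3%) fell in LTH with no call in IR29. At 8 h itself 834 of the 1295 (64.4%) stood at a higher level in LTH than in IR29, next to 6.74% of all probe sets. In the controls 248 (19.2%) had already been lower in LTH than in IR29, next to 3.44% of all probe sets. Both shares come from the arrays that made the calls, so the selection itself favours them. The number of calls rested on single arrays: without LTH 8 h replicate 2, IR29 control replicate 3 or IR29 8 h replicate 1 the higher calls numbered 702, 818 and 860, and without LTH control replicate 1, IR29 control replicate 3, IR29 8 h replicate 1, LTH 8 h replicate 2 or IR29 8 h replicate 3 the lower calls numbered 171, 186, 203, 206 and 214.

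**Figure D2:**
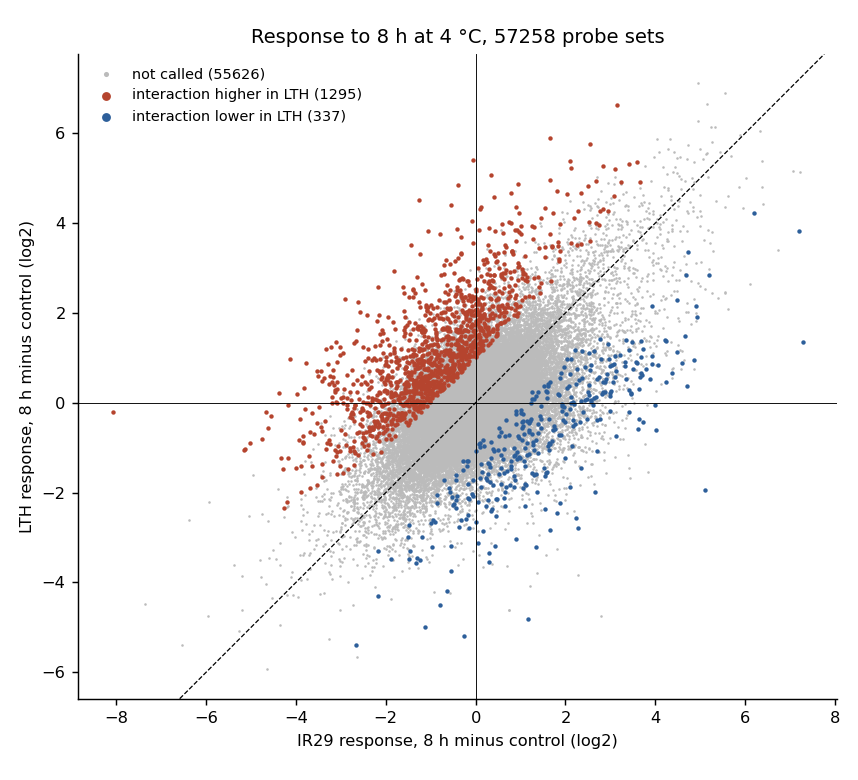
Response of each of the 57258 probe sets to 8 h at 4 °C, in log2 units, in LTH (vertical axis) and IR29 (horizontal axis); the dashed line marks equal responses. The 1295 red points above the line had a higher response in LTH and the 337 blue points below it a lower one.

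The genes given below include the 10 highest and the 10 lowest interactions among called genes with a name, a mean of at least 100 units in 1 of the 4 groups and responses of the LTH arrays that did not overlap those of the IR29 arrays. CBF3 (DREB1A), a DREB1/CBF factor, had the lowest value of these 20 genes. It was measured at 155, 77.5 and 128 units in LTH at 8 h and 46.9, 29.2 and 21.3 in LTH controls, against 1254, 1328 and 1434 in IR29 at 8 h and 23.6 to 87.6 in IR29 controls. CBF3 rose in both genotypes, by 1.90 log2 units in LTH and 4.94 in IR29, with an interaction of -3.03 ± 0.65 (SE, adjusted p = 0.0062), and no LTH array at 8 h came near an IR29 array at 8 h. For its relatives no difference was called. DREB1B stood at 1716, 1010 and 878 units in LTH at 8 h and 73.8, 30.1 and 25.3 in LTH controls, against 2656, 2624 and 2364 in IR29 at 8 h and 296, 24.9 and 90.5 in IR29 controls, with an interaction of 0.04 ± 1.01. DREB1G rose by 4.76 in LTH and 4.84 in IR29 (interaction -0.08 ± 0.53), and DREB1E rose by 2.12 in LTH and 3.14 in IR29 (interaction -1.02 ± 0.97, adjusted p = 0.71). CBF1 fell by 1.09 in LTH, with a response of -0.81 in IR29 that was not called and an interaction of -0.28. The paper reports strong up-regulation of its OsCBF1, OsCBF2 and OsCBF3 in LTH and IR29 alike. Genes were matched here by annotation name. Whether this CBF1 or another of the genes above is the paper's OsCBF1 was not settled. Thus 0 of the 5 members of this list were called higher and 1 was called lower, next to 4.30% and 0.738% of the 2440 named genes, and the list's median was -0.28 next to 0.01. DREB2B, a related factor of drought and heat responses, rose by 1.62 in LTH and 1.16 in IR29 (interaction 0.47, adjusted p = 0.35). With the standard error of DREB1B given above, a 2-fold difference in either direction was not detectable with 3 arrays a group.

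Proteins with an SPX domain, which sense phosphate and hold back its starvation response, were represented by OsSPX2 and OsSPX5 among the 10 highest genes. OsSPX2 gave 2356, 2540 and 1597 units in LTH at 8 h and 101, 104 and 109 in LTH controls, against 292, 418 and 259 in IR29 at 8 h and 152, 159 and 204 in IR29 controls. It rose 20.4-fold in LTH, while IR29 showed a ratio of 1.86 that stayed under the 2-fold minimum, and the interaction was 3.45 ± 0.40 (adjusted p = 8.4e-06). OsSPX5 gave 334, 522 and 178 units in LTH at 8 h and 6.67, 7.84 and 8.24 in LTH controls, against 12.9, 18.4 and 8.65 in IR29 at 8 h and 2.68, 1.87 and 5.32 in IR29 controls. It rose in both genotypes, by 5.38 in LTH and 2.09 in IR29 (interaction 3.29 ± 0.65, adjusted p = 0.0028). The remaining family members and the phosphate transporters were looked up after these values were seen. OsSPX1 rose 18.7-fold in LTH and 3.32-fold in IR29 (interaction 2.49 ± 0.23, adjusted p = 3.5e-07), with 1801 to 2654 units in LTH at 8 h and 537 to 602 in IR29 at 8 h. Neither OsSPX3 (interaction -0.83, adjusted p = 0.82) nor OsSPX4 (0.18, adjusted p = 0.86) was called. Among phosphate transporters, OsPht1;4 fell by 3.42 in IR29, from a control level that was called higher in IR29 than in LTH, and its LTH response was -0.63 (interaction 2.78 ± 0.47, adjusted p = 0.00058). OsPht1;1 rose by 1.62 in LTH and 1.53 in IR29, and OsPht1;8 by 1.71 in LTH and 1.22 in IR29, with interactions of 0.10 and 0.49 that were not called. The calls of OsSPX1, OsSPX2, OsSPX5 and OsPht1;4 were kept in all 12 fits that left out 1 array.

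The sugar transporter gene MtN3-like (LOC4326923, OsSWEET2b) stood at 1912, 2669 and 1814 units in LTH at 8 h and 369, 648 and 548 in LTH controls, against 92.2, 236 and 107 in IR29 at 8 h and 274, 385 and 612 in IR29 controls. It moved in opposite directions, with a rise of 2.05 in LTH and a fall of 1.60 in IR29 (interaction 3.65 ± 0.65, adjusted p = 0.0011), and the groups of each genotype did not overlap. None of the other 17 sugar transporters was called (1 was called lower without LTH 8 h replicate 3), and the median of the 18 was 0.26. The 1 call of 18 (5.56%) stands next to 4.30% of all named genes called higher. ICL, isocitrate lyase of the glyoxylate cycle, reached 778, 1018 and 567 units in LTH at 8 h and 27.3, 69.5 and 58.8 in LTH controls, against 177, 129 and 143 in IR29 at 8 h and 141, 104 and 44.2 in IR29 controls. ICL rose by 3.99 in LTH, and the interaction was 3.21 ± 0.83 (adjusted p = 0.026). OsTPP1, a trehalose-6-phosphate phosphatase, rose 41.0-fold in LTH and 12.0-fold in IR29, with 1219 to 1305 units in LTH at 8 h, 20.8 to 44.0 in LTH controls, 1555 to 1967 in IR29 at 8 h and 114 to 193 in IR29 controls. Its interaction was 1.77 ± 0.37 (adjusted p = 0.0048), while the levels at 8 h did not differ by a call (-0.50) and the LTH control was called lower than the IR29 control (-2.27). Starch synthesis had 2 of 7 members called higher, next to 4.30% of all named genes, and a median of 0.77, but 0 were called without LTH control replicate 3, IR29 8 h replicate 1 or IR29 control replicate 3, and 1 in 8 of the other fits that left out an array. The starch synthases SS1 (2.01, adjusted p = 0.037) and SS2 (1.06, adjusted p = 0.027) fell in IR29, by 2.03 and 1.87, and their LTH responses of -0.02 and -0.81 were not called. The next brightest probe set of SS2 gave 0.23 (adjusted p = 0.87). CFBP1, the cytosolic fructose-1,6-bisphosphatase of sucrose synthesis, fell by 2.09 in IR29 with a response of -0.04 in LTH (interaction 2.04 ± 0.39, adjusted p = 0.0024), and it was the called member (1 of 2 without LTH 8 h replicate 3) of 6 genes listed under the Calvin cycle, to which the cytosolic enzyme does not belong. The Rubisco activase gene rca of that cycle responded by 0.00 in LTH and -0.07 in IR29. Leaving out 1 array ended the call of ICL in 6 of 12 fits (largest adjusted p = 0.099, without LTH control replicate 1), that of SS1 in 8 (0.13, without LTH control replicate 3) and that of SS2 in 6 (0.097, without IR29 control replicate 3).

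Genes of vitamin B6 synthesis and several genes with a role in plastids are given together without a test of the group. They were among the highest or were added after the values were seen. PDX12 and PDX11 encode PDX1-type subunits of the enzyme that makes vitamin B6. PDX12 was measured at 2409, 2825 and 2521 units in LTH at 8 h and 2033, 2522 and 1996 in LTH controls, against 204, 518 and 186 in IR29 at 8 h and 1922, 1604 and 2149 in IR29 controls. The 3 IR29 arrays at 8 h lay far under all 9 other arrays, and the interaction was 3.05 ± 0.47 (adjusted p = 0.00021). PDX11, looked up after PDX12 was seen, fell by 1.74 in IR29 and responded by 0.38 in LTH (interaction 2.12 ± 0.28, adjusted p = 3.7e-05). OsPSY2, a phytoene synthase, which makes the first carotenoid precursor, stood at 1318, 1907 and 1199 units in LTH at 8 h and 684, 1161 and 949 in LTH controls, against 210, 242 and 232 in IR29 at 8 h and 924, 891 and 1186 in IR29 controls. It fell by 2.12 in IR29 (interaction 2.79 ± 0.56, adjusted p = 0.0032). Of the other phytoene synthases, OsPSY1 (0.84, adjusted p = 0.18) and OsPSY3 (0.37, adjusted p = 0.79) were not called.

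FtsH proteases clear damaged proteins from chloroplast and mitochondrial membranes. FTSH6 stood at 5.89, 3.46 and 4.65 units in LTH at 8 h and 5.08, 6.34 and 7.65 in LTH controls, against 11.5, 23.6 and 8.83 in IR29 at 8 h and 173, 139 and 156 in IR29 controls, so only the IR29 controls carried a high level. Its interaction of 3.08 ± 0.73 (adjusted p = 0.014) therefore came with a fall of 3.54 in IR29, and the call was lost without IR29 8 h replicate 3 (adjusted p = 0.052). FTSH2 and FTSH1, added after the values were seen, had interactions of 1.55 ± 0.26 (adjusted p = 0.00062) and 1.06 ± 0.20 (adjusted p = 0.0018) and fell in IR29 by 1.36 and 1.16, and FTSH1 came under 2-fold without LTH 8 h replicate 2 (0.98). OsTrx03, the f-type chloroplast thioredoxin, stood at 2364, 2404 and 1779 units in LTH at 8 h and 2411, 3152 and 2860 in LTH controls, against 727, 996 and 837 in IR29 at 8 h and 3032, 2808 and 3302 in IR29 controls (interaction 1.48 ± 0.26, adjusted p = 0.0011). It was the called member of 32 thioredoxins and glutaredoxins (3.12%), next to 4.30% of all named genes called higher, and the list's median was 0.27. MSRB1, a methionine sulfoxide reductase added after the values were seen, fell by 1.71 in IR29 (interaction 1.45, adjusted p = 0.0028). Of 16 enzymes that scavenge reactive oxygen and 6 glutathione S-transferases, 0 were called, and the list medians were 0.12 and 0.28. PSB28, a photosystem II protein, fell by 1.97 in IR29 (interaction 1.48, adjusted p = 0.022) and was the called member of 9 light harvesting and photosystem genes with a median of -0.13. The call of PSB28 was lost in 5 of the 12 fits (largest adjusted p = 0.087, without LTH 8 h replicate 2). OsNrx1-1, a nucleoredoxin, ran the other way and rose by 2.38 in IR29, with 573, 485 and 470 units in IR29 at 8 h and 73.1 to 123 in IR29 controls, while LTH had 112, 203 and 147 units at 8 h and 86.6 to 115 in controls (interaction -1.82 ± 0.42, adjusted p = 0.012, and 0.053 without IR29 control replicate 3).

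In chlorophyll synthesis, PORB, the light-dependent protochlorophyllide oxidoreductase, was measured at 242, 284 and 248 units in LTH at 8 h and 2352, 1945 and 1865 in LTH controls, against 1021, 885 and 1167 in IR29 at 8 h and 2515, 2066 and 2424 in IR29 controls. It fell in both genotypes, by 2.99 in LTH and 1.19 in IR29 (interaction -1.80 ± 0.38, adjusted p = 0.006), and the call was kept in all 12 fits that left out 1 array. Of the 15 chlorophyll synthesis genes, 9 fell in LTH and 2 fell in IR29, next to 10.0% and 11.6% of the named genes, and the median interaction was -0.65. PORB was the member called lower in the interaction (3 were called lower without IR29 8 h replicate 2), next to 0.738% of all named genes. CHLG (-1.22, adjusted p = 0.18) and CHLP (-0.71, adjusted p = 0.12), which act at the last steps of the pathway, were not called. CHLG was added from outside the selection of genes described below. In the breakdown of chlorophyll, 2 of 4 genes were called higher, next to 4.30% of all named genes. SGR, the stay-green protein that starts this breakdown, gave 674, 1204 and 963 units in LTH at 8 h and 154, 243 and 217 in LTH controls, against 467, 398 and 329 in IR29 at 8 h and 399, 347 and 363 in IR29 controls. SGR rose 4.59-fold in LTH (interaction 2.1 ± 0.35, adjusted p = 0.00052), and its IR29 groups overlapped. OsRCCR1, a later enzyme of the route, had an interaction of 1.08 (adjusted p = 0.047) that was kept in 2 of the 12 fits and lost in the others (largest adjusted p = 0.16, without LTH 8 h replicate 2). NYC1, chlorophyll b reductase, rose by 1.84 in LTH, but its interaction of 1.25 was not called (adjusted p = 0.16).

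**Figure D3:**
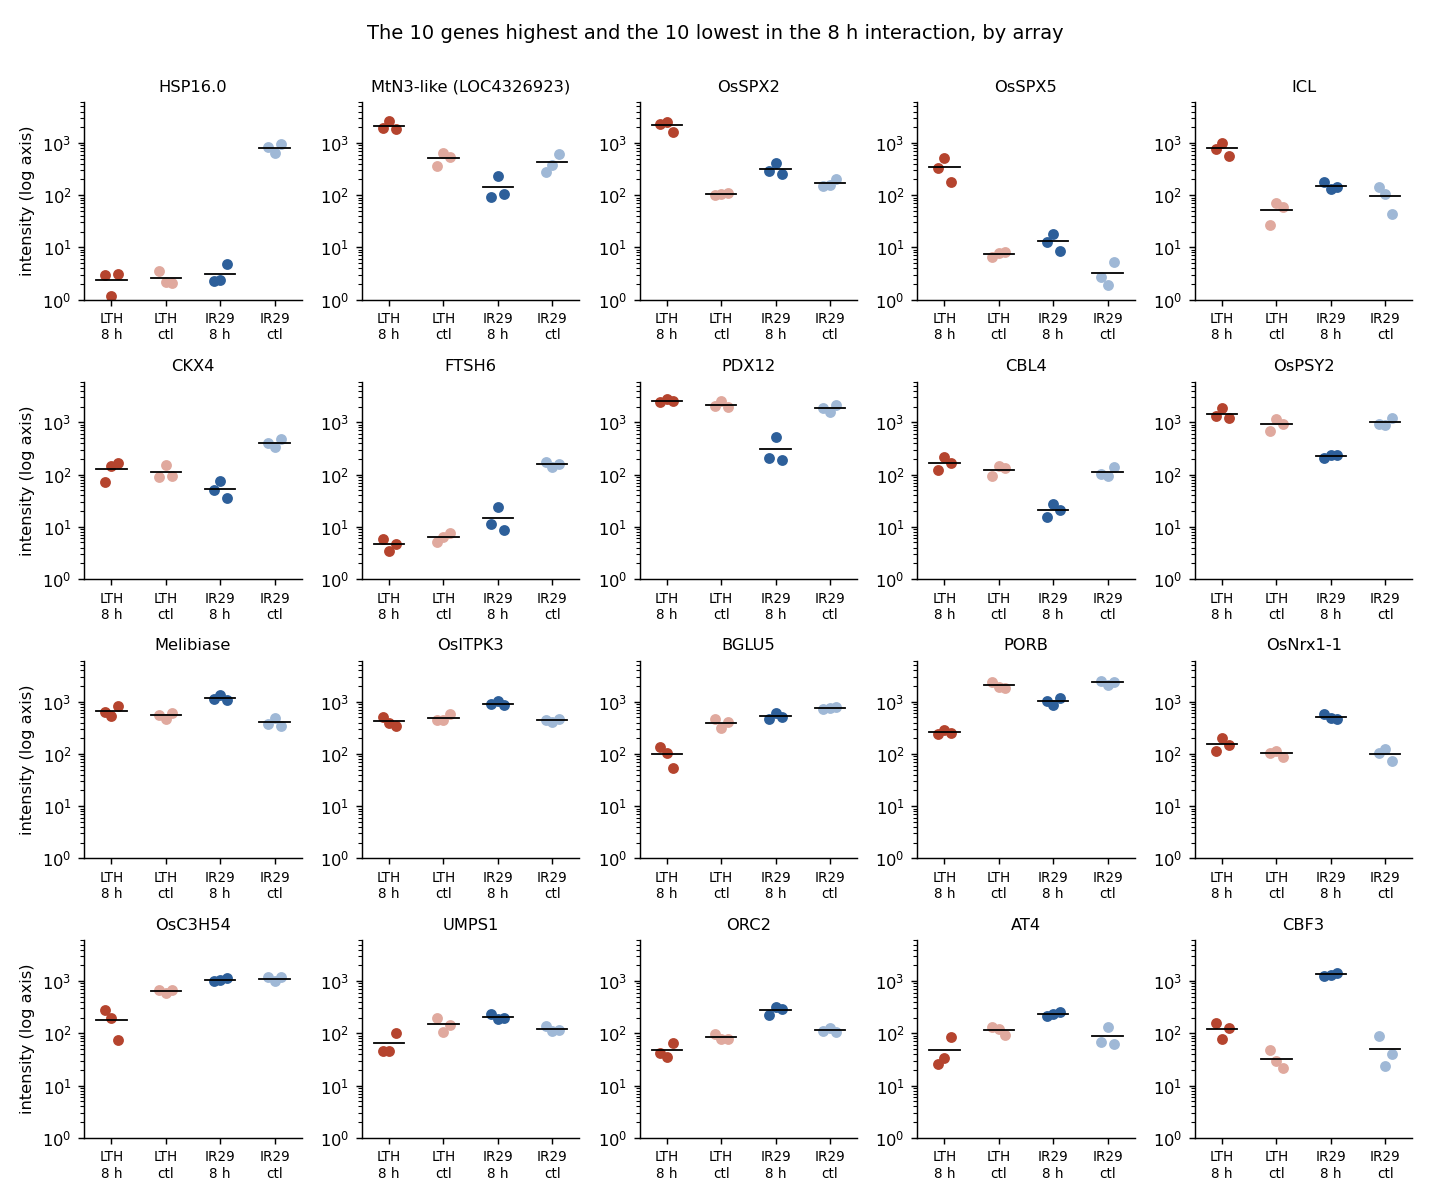
Intensity on each array, on a log axis, of the 10 genes with the highest (upper part) and the 10 with the lowest (lower part) interaction at 8 h, with points for arrays and a line for the mean of each group. CBF3 lies at 1254 to 1434 units in IR29 at 8 h and at 155 or less on all other arrays, and OsSPX2 lies at 1597 to 2540 in LTH at 8 h and at 418 or less elsewhere.

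Calcium sensors and their kinases formed the longest of the lists and held 9 called genes. CBL proteins bind calcium and then activate CIPK kinases, and CPK kinases bind calcium themselves. Of 51 such genes 9 were called higher and 0 lower, next to 4.30% and 0.738% of all named genes, with a median of 0.38 next to 0.01. CIPK2 stood at 1923, 2206 and 1746 units in LTH at 8 h and 512, 573 and 475 in LTH controls, against 479, 784 and 408 in IR29 at 8 h and 569, 636 and 651 in IR29 controls. It rose 3.76-fold in LTH while the IR29 groups overlapped (interaction 2.12 ± 0.25, adjusted p = 8.7e-06). CIPK26 (1.65, adjusted p = 0.0066), CIPK21 (1.76, adjusted p = 0.019) and CIPK19 (1.10, adjusted p = 0.0041) likewise rose in LTH and were not called in IR29. CBL4 gave 121, 217 and 165 units in LTH at 8 h and 94.2, 143 and 134 in LTH controls, against 15.1, 27.0 and 21.0 in IR29 at 8 h and 104, 92.6 and 137 in IR29 controls. This sensor fell by 2.42 in IR29 (interaction 2.84 ± 0.70, adjusted p = 0.019). CIPK18 (2.09, adjusted p = 0.021) and CIPK1 (1.12, adjusted p = 0.036) also fell in IR29, and CBL10 had responses of 0.65 in LTH and -0.61 in IR29, neither of 2-fold (interaction 1.26 ± 0.21, adjusted p = 0.00043). CIPK3 had the weakest call (1.22, adjusted p = 0.0499). CIPK26, CIPK19, CIPK1, CBL10 and CIPK3 are not among the 4 largest calls of the list and were picked after their values were seen. The kinase CPK13 rose by 2.66 in LTH and 2.48 in IR29, and CIPK5 fell by 4.33 in LTH and 3.95 in IR29, with interactions of 0.18 and -0.39 that were not called. CIPK5 was added from outside the selection of genes described below. Without LTH 8 h replicate 2, LTH control replicate 1 or IR29 control replicate 3 the list had 4 calls each, without IR29 8 h replicate 1 it had 5, and without LTH control replicate 3, IR29 8 h replicate 2 or IR29 8 h replicate 3 it had 6. CIPK2, CIPK26 and CBL10 were called in all 12 fits, CIPK19 in 11, CBL4 and CIPK21 in 8, CIPK18 in 7, CIPK1 in 3 and CIPK3 in 2.

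Among calmodulin-like proteins, CML30 rose by 1.67 in LTH with 1214, 1811 and 1463 units at 8 h and 382, 565 and 460 in controls, while IR29 had 633, 767 and 648 at 8 h and 560, 578 and 758 in controls (interaction 1.55 ± 0.26, adjusted p = 0.0005). CML20 rose by 3.49 in LTH and 1.84 in IR29 (interaction 1.65, adjusted p = 0.028), and was called in 4 of the 12 fits (largest adjusted p = 0.099, without IR29 8 h replicate 1). They were the called 2 of 26 members (4 without IR29 control replicate 2), and the median was 0.35. The 2 calls (7.69%) stand next to 4.30% of all named genes called higher. MPK14, the called 1 of 16 MAP kinases, rose by 1.15 in LTH and responded by -0.10 in IR29 (interaction 1.25 ± 0.22, adjusted p = 0.0011), and 2 of the 16 were called in 5 of the fits that left out an array, those without LTH 8 h replicate 1 or 3, LTH control replicate 2, IR29 8 h replicate 2 or IR29 control replicate 2.

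Transcription factors were called higher in LTH in some families and not in others. The counts in each stand next to 4.30% of all named genes called higher and 0.738% called lower. Of 11 MYB, 13 bHLH, 31 MADS-box, 7 GRAS and 7 AP2/ERF factors other than DREB1, 0 were called. Leaving out 1 array gave at most 1 MYB and 1 GRAS call. WRKY factors, which act in defence and stress, had 2 of 6 named members called and a median of 1.22. In the controls 4 of the 6 were called lower in LTH than in IR29, with a median difference of -1.53. At 8 h the median difference in level between the genotypes was 0.001, and 1 was called higher in LTH. OsWRKY24 reached 948, 1378 and 1595 units in LTH at 8 h and 22.6, 42.0 and 34.4 in LTH controls, against 543, 1381 and 746 in IR29 at 8 h and 102, 67.3 and 68.3 in IR29 controls. It rose by 5.32 in LTH and 3.41 in IR29 (interaction 1.91 ± 0.46, adjusted p = 0.015), and its 8 h groups overlapped between the genotypes. OsWRKY71 rose by 3.51 in LTH and 2.25 in IR29 (interaction 1.26, adjusted p = 0.0051), with a lower control level in LTH (-1.78), while its next brightest probe set gave 0.62 (adjusted p = 0.62). Without IR29 control replicate 1 neither was called, and OsWRKY24 was also lost without LTH control replicate 1 or IR29 8 h replicate 1 (adjusted p = 0.067). Of 20 heat shock factors 3 were called higher, and the median was 0.33. HSF05 (HSFC2A) rose by 2.35 in LTH, with 422, 385 and 275 units at 8 h and 47.6, 91.0 and 76.9 in controls, whereas IR29 had 125, 385 and 534 at 8 h and 297, 373 and 383 in controls (interaction 2.60 ± 0.55, adjusted p = 0.0052). HSF10 rose by 2.51 in LTH (interaction 1.70, adjusted p = 0.015), and HSF09 rose by 3.56 in LTH and 2.13 in IR29 (interaction 1.43, adjusted p = 0.033). Without LTH 8 h replicate 2, IR29 8 h replicate 1 or IR29 control replicate 3, 1 of these 3 was called.

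Hox22, an HD-Zip factor, was the called member of 25 and gave 999, 1278 and 892 units in LTH at 8 h and 298, 368 and 335 in LTH controls, against 417, 720 and 627 in IR29 at 8 h and 892, 855 and 1100 in IR29 controls. It rose by 1.65 in LTH, and its IR29 response of -0.72 stayed under 2-fold (interaction 2.37 ± 0.33, adjusted p = 5.8e-05). The NAC factors NAC071 (1.65, adjusted p = 0.034) and NAC067 (1.30, adjusted p = 0.047) were 2 of 8, with calls kept in 4 and 2 of the 12 fits (largest adjusted p = 0.14, without IR29 8 h replicate 1, and 0.16, without IR29 control replicate 1). The NAC list had 3 calls without IR29 8 h replicate 2. OsbZIP41 was the called 1 of 18 bZIP factors and was lower, and another was called higher without LTH 8 h replicate 1 or IR29 8 h replicate 2. It stood at 26.8, 19.0 and 24.9 units in LTH at 8 h and 42.8, 28.7 and 34.0 in LTH controls, against 20.9, 74.2 and 27.9 in IR29 at 8 h and 10.7, 9.63 and 10.5 in IR29 controls. OsbZIP41 rose by 1.77 in IR29 (interaction -2.35 ± 0.54, adjusted p = 0.012). OsC3H54, a CCCH zinc finger protein, fell by 2.02 in LTH, where 274, 198 and 75.5 units at 8 h stood against 686, 589 and 681 in controls, while IR29 had 996, 1042 and 1136 at 8 h and 1182, 995 and 1185 in controls. Its interaction was -1.94 ± 0.50 (adjusted p = 0.026), kept in 5 of the 12 fits (largest adjusted p = 0.078, without LTH 8 h replicate 3). Of 7 circadian clock genes 0 were called (1 without LTH 8 h replicate 3, LTH control replicate 2 or IR29 control replicate 1), all 7 interactions lay above 0, and the median was 0.66.

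Hormone genes gave 0 to 2 calls in each list described here, next to 4.30% of all named genes called higher and 0.738% called lower. OPR10, of the 12-oxophytodienoate reductase family of jasmonate synthesis, rose by 3.47 in LTH and 1.55 in IR29, with 639, 831 and 686 units in LTH at 8 h, 59.1 to 72.1 in LTH controls, 116, 213 and 134 in IR29 at 8 h and 42.1 to 60.5 in IR29 controls (interaction 1.92 ± 0.33, adjusted p = 0.00069). It was the called 1 of 17 jasmonate synthesis genes, of which 8 rose in LTH and 10 in IR29, and without IR29 8 h replicate 2 the calls were 2 higher and 1 lower. Of the 13 JAZ repressors, which are themselves induced by jasmonate, 8 rose in LTH and 8 in IR29, next to 13.4% of the named genes in either genotype, and 0 were called in the interaction, but 3 were without LTH 8 h replicate 1, and 1 without LTH control replicate 2 or IR29 control replicate 1. CKX4, a cytokinin oxidase that degrades the hormone, stood at 73.0, 144 and 167 units in LTH at 8 h and 91.0, 154 and 94.6 in LTH controls, against 50.8, 75.5 and 35.6 in IR29 at 8 h and 405, 334 and 472 in IR29 controls. It fell by 2.96 in IR29 (interaction 3.09 ± 0.68, adjusted p = 0.0076) and was the called 1 of 29 cytokinin genes, with 2 called without LTH 8 h replicate 3, LTH control replicate 3, IR29 8 h replicate 2 or IR29 control replicate 1. OsSAPK1, an SnRK2 kinase of abscisic acid signalling, fell by 1.06 in IR29 and had a response of 0.77 in LTH (interaction 1.84 ± 0.31, adjusted p = 0.00055), the called 1 of 26. This list had 4 calls without LTH 8 h replicate 1 and 2 without LTH 8 h replicate 3, LTH control replicate 1 or IR29 control replicate 2. The auxin response factors ARF10 (LOC4336419) and ARF10 (LOC4341882) rose in LTH by 2.59 and 1.02 (interactions 1.84, adjusted p = 0.015, and 1.17, adjusted p = 0.033), the 2 of 16 called. The auxin repressor IAA20 (LOC4340245) rose by 2.90 in IR29 (interaction -2.37, adjusted p = 0.018), the 1 of 26 Aux/IAA genes called. EIL1 (LOC4332697), an EIN3-like factor of ethylene signalling, rose by 1.83 in LTH (interaction 1.78, adjusted p = 0.043). Calls were lost for ARF10 (LOC4336419) in 3 of the 12 fits (largest adjusted p = 0.07, without LTH 8 h replicate 2), ARF10 (LOC4341882) in 11 (0.10, without LTH 8 h replicate 2), IAA20 in 3 (0.083, without IR29 control replicate 3) and EIL1 in 10 (0.15, without IR29 8 h replicate 3).

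Lists of growth and wall genes had negative medians and few calls. Over all named genes the median was 0.01, with 4.30% called higher and 0.738% called lower. The medians were -1.16 over 48 cyclins, kinesins and cell cycle inhibitors (0 called), -0.73 over 31 DNA replication genes (1 called lower), -1.02 over 29 cellulose synthases (0 called), -0.82 over 29 expansins (0 called) and -1.02 over 10 growth-regulating factors (0 called). The called gene was ORC2, part of the complex that marks replication origins, with 42.9, 34.5 and 64.0 units in LTH at 8 h and 98.4, 77.1 and 76.3 in LTH controls, against 228, 315 and 298 in IR29 at 8 h and 112, 127 and 107 in IR29 controls. It rose by 1.27 in IR29, and its LTH response was -0.87 (interaction -2.14 ± 0.39, adjusted p = 0.0013). All 12 markers of dividing cells, whose median interaction was -2.12, are themselves members of the DNA replication list (7) or the cyclin list (5). With these members left out, a choice made after the data were seen, the medians were -0.49 over 24 DNA replication genes and -1.09 over 43 genes of the cyclin list, and the calls were the same in number. Without LTH 8 h replicate 3 the median of the markers was -2.72, that of the cyclin list was -1.63 with 3 called lower and 1 higher, and 2 expansins were called lower and 1 higher. Without IR29 control replicate 2, 1 gene of the cyclin list, 2 of DNA replication and 1 growth-regulating factor were called lower. Without LTH 8 h replicate 2 the cyclin list's median was -0.81. OsPIP2;8, the called 1 of 25 aquaporins, rose by 4.02 in IR29 with 70.1, 23.8 and 53.4 units at 8 h and 2.18 to 4.11 in controls, and the 6 LTH arrays read 1.07 to 4.84 units (interaction -4.61 ± 1.04, adjusted p = 0.0096). Since the LTH arrays and the IR29 controls lie near the floor of 1, the size of this difference depends on the floor, and a floor of 3.16 units gave -3.90.

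Wall and secondary metabolism gave calls in both directions. The count of phenylpropanoid genes below stands next to 4.30% of all named genes called higher and 0.738% called lower. CCR1, a cinnamoyl-CoA reductase of lignin synthesis, rose by 3.31 in LTH at low intensity, with 24.5, 50.4 and 16.6 units at 8 h and 2.62 to 2.87 in controls, while IR29 had 1.98 to 4.28 at 8 h and 2.02 to 5.28 in controls (interaction 3.64 ± 0.65, adjusted p = 0.0011, and 3.26 with a floor of 3.16 units), the called 1 of 24 phenylpropanoid genes. AT4 (OsPMT), an acyltransferase that acts on lignin precursors, moved in opposite directions, with 25.9, 34.2 and 83.1 units in LTH at 8 h and 132, 123 and 94.5 in LTH controls, against 218, 236 and 257 in IR29 at 8 h and 67.4, 133 and 63.5 in IR29 controls. It fell by 1.46 in LTH and rose by 1.51 in IR29 (interaction -2.97 ± 0.72, adjusted p = 0.017). The call was lost without LTH 8 h replicate 1, LTH 8 h replicate 2 or IR29 control replicate 3 (largest adjusted p = 0.059). UMPS1, UMP synthase of pyrimidine synthesis, fell by 1.29 in LTH (interaction -2.07, adjusted p = 0.015), a call lost without LTH 8 h replicate 2 (adjusted p = 0.064) or LTH control replicate 1. BGLU5, a beta-glucosidase, fell by 2.09 in LTH (interaction -1.57, adjusted p = 0.031), a call kept in 2 of the 12 fits (largest adjusted p = 0.099, without LTH control replicate 1). Melibiase, an alpha-galactosidase, rose by 1.56 in IR29 (interaction -1.31, adjusted p = 0.027), a call kept in 4 fits (largest adjusted p = 0.10, without LTH 8 h replicate 2). OsITPK3, an inositol phosphate kinase, rose by 1.06 in IR29 (interaction -1.31, adjusted p = 0.02), but its next brightest probe set gave 2.70 (adjusted p = 0.00022), so the direction of this gene is not settled, and its first call was lost without LTH 8 h replicate 2 or LTH control replicate 3.

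**Figure D4:**
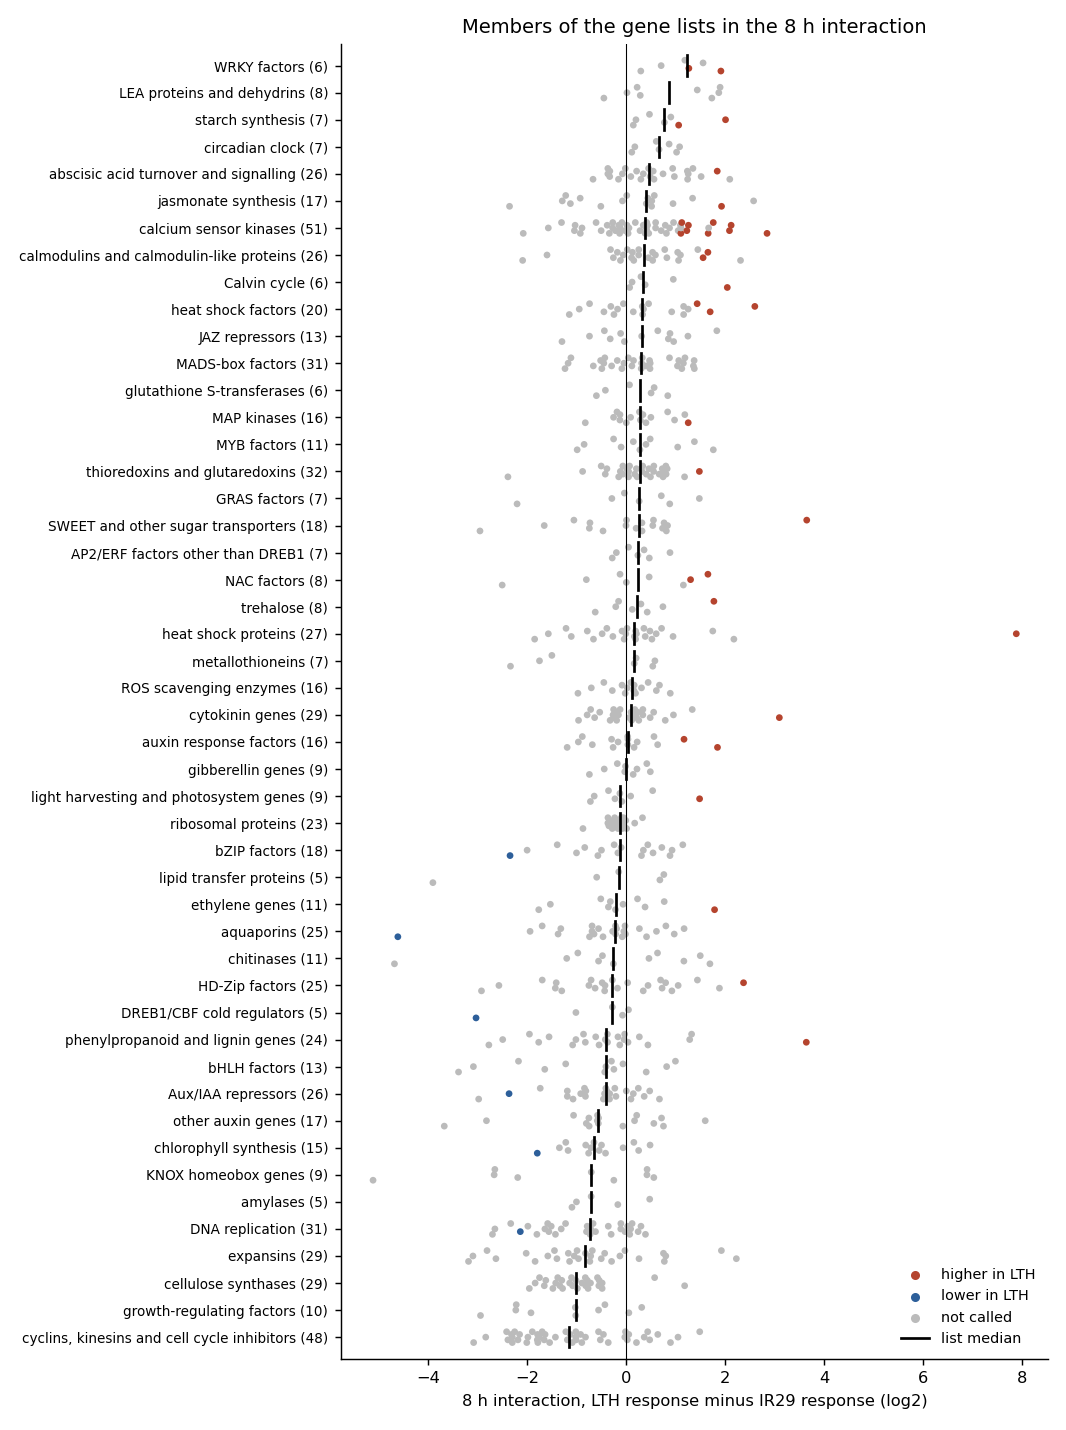
Interaction at 8 h, in log2 units, of each member of the gene lists with at least 5 genes, with the number of genes beside each name, coloured points for called genes and a black bar for the list's median. Calcium sensor kinases hold 9 red points, and the cyclin list has a median of -1.16 with no called gene.

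Of the 27 heat shock protein genes, HSP16.0, a small heat shock protein, had the highest interaction of all named genes (7.88 ± 1.04, adjusted p = 3.6e-05) and was the list's called member. It was measured at 2.97, 1.19 and 3.04 units in LTH at 8 h and 3.57, 2.14 and 2.11 in LTH controls, against 2.30, 2.33 and 4.81 in IR29 at 8 h and 838, 641 and 940 in IR29 controls. Since 9 of these 12 values lie near the floor of 1, the interaction is in effect the fall in IR29. BIP1, HSP81-1 and HSP24.1, added from outside the selection of genes described below, fell by 2.29, 2.57 and 3.39 in LTH. In IR29 they fell by 2.77, 2.76 and 3.91, with interactions of 0.48, 0.19 and 0.52 that were not called. Of the 27 genes, 6 fell in LTH and 10 fell in IR29, next to 10.0% and 11.6% of the named genes. The median responses were -0.58 and -0.71, and the 1 call (3.7%) stands next to 4.30% of all named genes called higher.

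Counted with 1 probe set per gene, 665 of 17905 genes (3.71%) had a higher and 132 (0.737%) a lower response in LTH, and 36 of them were called in opposite directions in the 2 genotypes. Of the 36, 29 rose in LTH and fell in IR29, and 7 fell in LTH and rose in IR29. Only 3 carry a name, namely MtN3-like (LOC4326923), MIA40 and AT4. MIA40, which imports proteins into mitochondria, gave 130, 169 and 182 units in LTH at 8 h and 77.5, 69.6 and 68.0 in LTH controls, against 35.3, 39.5 and 32.7 in IR29 at 8 h and 93.8, 72.2 and 91.5 in IR29 controls (interaction 2.41 ± 0.49, adjusted p = 0.0043). The widest differences among the 36 were in genes with no name, at 4.87 for LOC9271191 and 4.75 for LOC4330310, and at -7.06 for LOC4349327 and -4.79 for LOC4324219. LOC4349327 read only 3.29 to 5.64 units in LTH at 8 h, near the floor, and for LOC4324219 the 8 h arrays of each genotype overlapped its controls, with 3.94, 3.78 and 21.8 units in LTH at 8 h and 48.2, 81.8 and 16.7 in LTH controls, against 209, 74.7 and 248 in IR29 at 8 h and 29.8, 108 and 11.5 in IR29 controls.

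The genotype difference was also computed at the other times against the same 6 control arrays, so the values below share those controls. The higher and lower calls numbered 680 (1.19%) and 230 (0.402%) at 2 h, 2300 (4.02%) and 1197 (2.09%) at 24 h and 3371 (5.89%) and 1616 (2.82%) at 48 h. CBF3 had interactions of -3.04, -3.03, -2.35 and -2.67 at 2, 8, 24 and 48 h, all of them called. CIPK2 was called at each time as well, with 2.01, 2.12, 1.83 and 1.47, and OsSPX2 with 2.51, 3.45, 1.80 and 1.34. OsSPX5 stood at 2.63, 3.29, 2.11 and 0.79 and ICL at 3.75, 3.21, 1.49 and 0.82, and the last value of OsSPX5 and the last pair of ICL were not called. MtN3-like (LOC4326923) was called at 8 h with values of 2.27, 3.65, 1.83 and 1.14, while OsPht1;4 was called at all times with 1.97, 2.78, 3.63 and 4.38. In a direct test of the 8 h interaction against the mean of those at 2 and 24 h, 0 probe sets were higher (0.00%) and 2 were lower (0.00349%). Of the 57258 tested, 2071 and 2032 had an unadjusted p below 0.05 in limma in these directions. These unadjusted counts include those expected with no difference. The 2 probe sets have no gene assigned. Their interactions were -5.93 and -2.16 at 8 h, -5.28 and 3.18 at 24 h and 0.91 and 1.86 at 2 h. The former was close to its 24 h value, and the latter was not called in the 8 h interaction (limma adjusted p = 0.11). No named gene was thus shown to have a difference particular to 8 h.

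**Figure D5:**
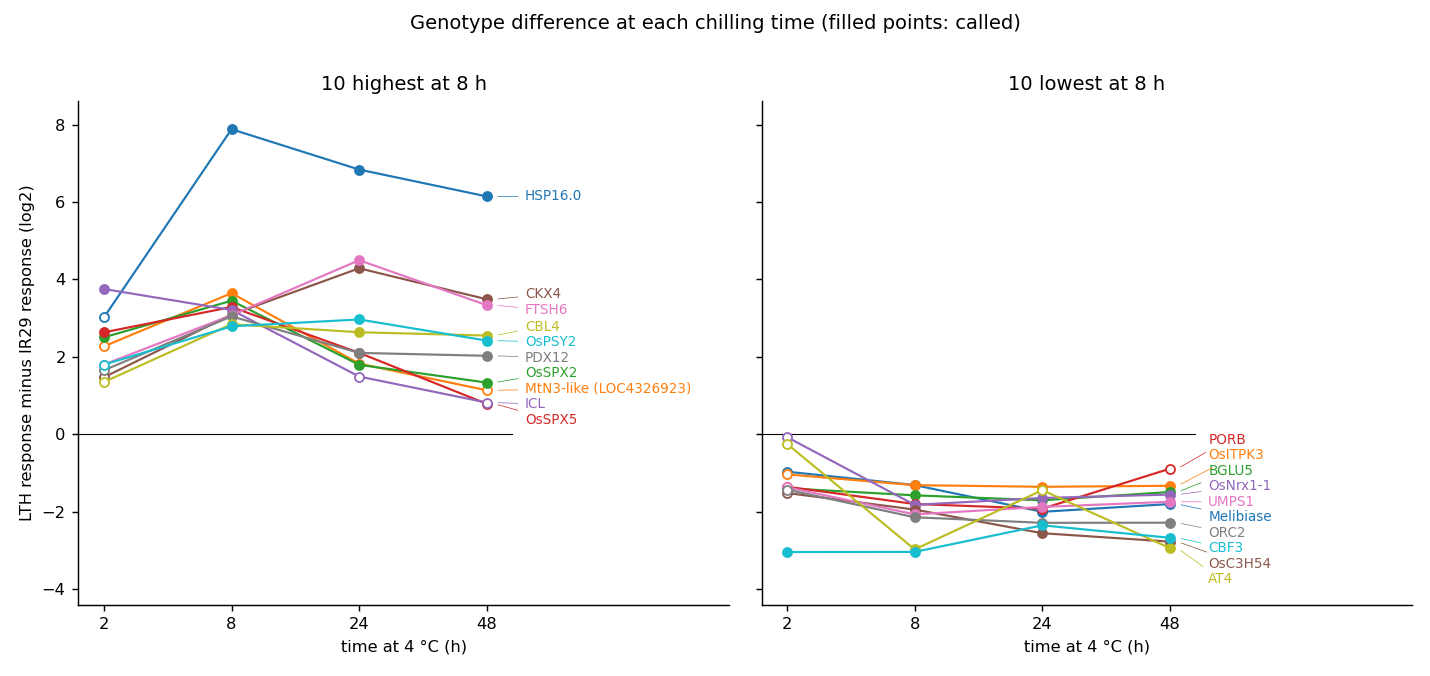
Genotype difference in response (LTH minus IR29, log2) at 2, 8, 24 and 48 h of chilling for the 10 genes highest (left) and the 10 lowest (right) at 8 h, with filled points for called values. All times share the same 6 control arrays; CBF3 stays between -3.04 and -2.35, and OsSPX5 reads 3.29 at 8 h and 0.79 at 48 h.

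The genotypes also differed without chilling. At 8 h the level of 3861 probe sets was higher (6.74%) and that of 2562 lower (4.47%) in LTH than in IR29, and in the controls the numbers were 2329 (4.07%) and 1968 (3.44%). Genes with a positive interaction therefore include some, like OsTPP1, CKX4, HSF05 and OsPht1;4, whose LTH control was lower than the IR29 control and whose level at 8 h was not called different between the genotypes. Others differed at 8 h and not in the controls, and among these were MtN3-like (LOC4326923), with 3.99 at 8 h and 0.34 in the controls, PDX12 (3.26 and 0.21), OsSPX2 (2.75 and -0.71) and, with a lower level in LTH, CBF3 (-3.53 and -0.50).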

How the data were processed

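Affymetrix rice genome arrays of 12 groups of 3 leaf samples were used. The deposited values are linear intensities, 1 per probe set and array, which the authors extracted with GCOS and normalized with dChip. Values under 1 were set to 1 (0.00097% of all values) and log2 was taken. No background estimate comes with these intensities, and the 3 arrays of each group limit the precision. The R 4.3.3 package limma 3.58.1 was fitted with a mean for each of the 12 groups on all 36 arrays. An intensity trend was used in eBayes, and Benjamini-Hochberg adjustment was made within each contrast over 57258 probe sets. The fit was also run on simulated data with independent noise, which cannot show how outlying arrays affect it. Replicates are labelled as biological.

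Genes were named through the platform annotation and the RefSeq gene table, which gave 22436 probe sets 1 gene and 95 several, over 17905 genes, 2440 of them with a name. The probe set with the highest mean log2 level stood for a gene. Whether probes match both genomes alike, or also match other transcripts, was not tested. Genes in the text are the 10 highest and 10 lowest described there, those of opposite direction, up to 4 called and 2 other members of each list, and cold regulators that the study names. Some genes were added after the values were seen, and some list members were added from outside this selection, as said beside them. The members and lists were chosen with earlier results of these data known. Replicate numbers were not used as pairs. Other normalizations, floors, filters, tests and array sets were tried, and their effect is given at the end.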

Additional observations from a re-analysis of the deposited data

Results flagged for a closer look

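In each result below the response to chilling differed between the genotypes by the interaction test, which is the reason it is listed. At 8 h, 1295 probe sets had a higher and 337 a lower response in LTH than in IR29. At the other times, which share the control arrays with 8 h, the counts were 680 and 230 at 2 h, 2300 and 1197 at 24 h and 3371 and 1616 at 48 h. In the test of the 8 h interaction against the mean of those at 2 and 24 h, 2 probe sets were lower, not both of them called in the 8 h interaction. At 8 h, 36 genes were called in opposite directions in LTH and IR29.

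The 8 h interactions of the genes named, in log2 units and as LTH minus IR29, were as follows. Among cold, calcium and protein kinase genes they were -3.03 for CBF3, 2.12 for CIPK2, 2.09 for CIPK18, 1.76 for CIPK21, 1.65 for CIPK26, 1.10 for CIPK19, 1.12 for CIPK1, 1.22 for CIPK3, 2.84 for CBL4, 1.26 for CBL10, 1.65 for CML20, 1.55 for CML30, 1.25 for MPK14 and 1.84 for OsSAPK1. Among transcription factors and stress-associated zinc finger genes they were 2.60 for HSF05, 1.43 for HSF09, 1.70 for HSF10, 1.91 for OsWRKY24, 1.26 for OsWRKY71, 1.65 for NAC071, 1.30 for NAC067, 2.37 for Hox22, 1.84 for ARF10 (LOC4336419), 1.17 for ARF10 (LOC4341882), 1.78 for EIL1 (LOC4332697), 2.48 for OsSAP5, 2.24 for OsSAP17, -2.35 for OsbZIP41, -1.94 for OsC3H54 and -2.37 for IAA20 (LOC4340245). Phosphate, nitrogen, sugar and storage genes gave 2.49 for OsSPX1, 3.45 for OsSPX2, 3.29 for OsSPX5, 2.78 for OsPht1;4, 2.65 for AMT1, 3.65 for MtN3-like (LOC4326923), 1.77 for OsTPP1, 2.01 for SS1, 1.06 for SS2, 2.04 for CFBP1, 3.21 for ICL, -1.31 for Melibiase and -1.31 for OsITPK3. Vitamin B6, plastid, mitochondrial and redox genes gave 2.12 for PDX11, 3.05 for PDX12, 2.79 for OsPSY2, 1.06 for FTSH1, 1.55 for FTSH2, 3.08 for FTSH6, 1.48 for PSB28, 1.48 for OsTrx03, 1.45 for MSRB1, 2.1 for SGR, 1.08 for OsRCCR1, -1.80 for PORB, 2.51 for AOX1, 2.41 for MIA40 and -1.82 for OsNrx1-1. The remaining genes gave 7.88 for HSP16.0, 3.09 for CKX4, 1.92 for OPR10, 3.64 for CCR1, -2.97 for AT4, -2.14 for ORC2, -2.07 for UMPS1, -1.57 for BGLU5, -4.61 for OsPIP2;8, 4.87 for LOC9271191, 4.75 for LOC4330310, -7.06 for LOC4349327 and -4.79 for LOC4324219.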

How the results depend on the processing

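The numbers of probe sets with a higher and a lower response in LTH (1295 and 337) ranged over 702 to 1487 and 171 to 488 when each of the 12 arrays was left out in turn, with the lowest values without LTH 8 h replicate 2 and LTH control replicate 1 and the highest without LTH 8 h replicate 3. The same ranges were 3607 to 4142 that rose and 2927 to 3863 that fell in LTH, 3348 to 4244 that rose and 3769 to 4611 that fell in IR29, and 0 to 1 higher and 1 to 5 lower for the 8 h interaction against those at 2 and 24 h. A fit of the 4 groups alone gave 593 lower calls. Counting 1 probe set per gene with a name gave 105 and 18, 328 and 245 in LTH, 327 and 282 in IR29, and 0 lower against 2 and 24 h. With no fold minimum 6366 rose in LTH and 6994 fell in IR29. The methods' t-test with Benjamini-Hochberg adjustment gave 1722 that rose and 2028 that fell in LTH and 2629 that rose in IR29. Against 2 and 24 h, quantile normalization gave 1 higher call, and a floor at the 20th percentile gave 2 higher and 9 lower. The cause was not tested, other than the fewer features or arrays of a setting.

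Higher calls made up 75.1% to 84.0% of calls in the fits over all probe sets and 85.4% over 1 probe set per gene with a name, against 79.4% in the fit reported. Of 67 called genes 35 were called in all alternatives run. With the next brightest probe set, which 15 of them have, OsITPK3 reversed (2.70) and BGLU5, CIPK3, NAC071, OsWRKY71 and SS2 lost their calls.

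Both genotypes shared plates, but the labels do not tie replicate numbers to plates, and deviations of same-numbered arrays correlated at -0.458 to 0.283 over 18 pairs, and other pairs at -0.309 to 0.477. With the replicate number as a block the counts were 1408 and 362, and of the 67 genes OsRCCR1 lost its call.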

Other observations

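Some further genes were picked after their values were seen. AOX1 (OsAOX1A), the alternative oxidase of the mitochondrial respiratory chain, gave 606, 951 and 662 units in LTH at 8 h and 118, 106 and 109 in LTH controls, against 156, 308 and 191 in IR29 at 8 h and 189, 176 and 186 in IR29 controls. It rose by 2.71 in LTH and responded by 0.19 in IR29, with an interaction of 2.51 ± 0.39 (adjusted p = 0.00025). AMT1 (OsAMT1;1), an ammonium transporter, stood at 1217, 1827 and 1528 units in LTH at 8 h and 737, 1344 and 1055 in LTH controls, against 202, 488 and 251 in IR29 at 8 h and 1059, 1161 and 1520 in IR29 controls. It fell by 2.08 in IR29 with a response of 0.57 in LTH (interaction 2.65 ± 0.43, adjusted p = 0.00042), and its LTH groups overlapped.

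The stress-associated zinc finger genes OsSAP5 and OsSAP17 both rose in LTH. OsSAP5 gave 225, 238 and 160 units in LTH at 8 h and 19.4, 23.1 and 19.7 in LTH controls, against 27.1, 29.4 and 32.4 in IR29 at 8 h and 16.3, 21.2 and 13.3 in IR29 controls (interaction 2.48 ± 0.57, adjusted p = 0.012). OsSAP17 rose by 4.93 in LTH and 2.69 in IR29 (interaction 2.24, adjusted p = 0.023), and its call was lost in 4 of the 12 fits that left out 1 array (largest adjusted p = 0.092, without IR29 control replicate 1). AOX1, AMT1 and OsSAP5 were called in all 12.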
